A study of Mus musculus with 12 samples.

Results

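The genes described here build the mitochondrial respiratory chain and the ATP synthase. They were chosen by symbol alone (Nduf, Uqcr, Atp5, Sdha to Sdhd, Cox4 to Cox8, and mt-), and 111 of the 32285 genes in the count tables matched. Of these, 98 are nuclear genes and 13 are encoded by the mitochondrial genome (the mt- genes), which are reported apart. By symbol, the nuclear members comprised 39 genes of complex I (NADH dehydrogenase), 4 of complex II (succinate dehydrogenase), 8 of complex III (cytochrome bc1 complex), 18 of complex IV (cytochrome c oxidase), 17 of complex V (ATP synthase) and 12 assembly factors (Ndufaf and Sdhaf genes). RNA of single cells from the glabrous hind paw epidermis was read by droplet sequencing in 12 wild-type C57BL/6J mice, each with a library of its own: 3 male and 3 female mice on a regular diet (RD, 11% fat) and 3 male and 3 female mice on a high-fat diet (HFD, 42% fat). Mice were 6 to 8 weeks old at the start and stayed on the diet for 10 weeks, so they were 16 to 18 weeks old when the epidermis was taken. The comparison with diet asks whether the respiratory chain of epidermal cells differs in this diet model of painful diabetic neuropathy.

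Complexes I and II take electrons from NADH and succinate, complex III passes them on through cytochrome c, and complex IV transfers them to oxygen. Complexes I, III and IV pump protons across the inner mitochondrial membrane, and complex V uses the return of the protons to make ATP. The mitochondrial genome encodes core subunits of complexes I, III, IV and V, whereas complex II is wholly nuclear encoded. Keratinocytes divide in the basal layer, move through the spinous layers and, as they cornify, degrade their nuclei and mitochondria. Nrf1, GA-binding proteins of the ETS family, YY1 and the estrogen-related receptors (ERR) are transcription factors known to act on many nuclear genes of the chain.

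Promoter sequences are shown for some of the members described below that hold a motif in the window from 250 bases before to 50 bases after the transcription start (RefSeq, GRCm38.p6). Of the 98 nuclear members, 79 were found in this table by symbol. Motifs were searched by their letters on both strands, and a match describes letters and is not evidence of binding. The NRF1 motif (GCGC, any 2 bases, and GCGC again), which reads the same on both strands, was present for 23 of the 79 members (29.1%), against 6.997% of 27025 genes in the table and 16.3% of the 5880 genes that reached 20 CPM in some class. The YY1 motif AAGATGGCG was present for 8 members (10.1%, against 1.64% of all genes), the ETS motif CCGGAAGT for 5 (6.33%, against 4.31%) and the ERR motif TCAAGGTCA for 2 (2.53%, against 0.466%). Among the genes at 20 CPM, the ETS motif was present for 9.71%, a higher share than among the members, and the YY1 and ERR motifs for 3.93% and 0.255%. Below, capitals mark the motif and 10 bases are given on each side, on the strand of the gene.
Sdhd, complex II, NRF1 motif beginning 79 bases before the start, chr9:50603909-50603938, minus strand: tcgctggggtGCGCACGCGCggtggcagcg
Sdha, complex II, NRF1 motif beginning 98 bases before the start, chr13:74350319-74350348, minus strand: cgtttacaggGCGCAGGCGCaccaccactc
Atp5g2, complex V, NRF1 motif beginning 42 bases before the start, chr15:102671070-102671099, minus strand: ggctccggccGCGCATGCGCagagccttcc
Ndufab1, complex I, NRF1 motif beginning 80 bases before the start, chr7:122101909-122101938, minus strand: gggtccgcccGCGCCCGCGCagccctcaag
Atp5g3, complex V, ERR motif in reverse, beginning 52 bases before the start, chr2:73911360-73911388, minus strand: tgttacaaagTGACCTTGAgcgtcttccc
These windows were chosen for their motif and belong to the complex II subunits Sdhd and Sdha, the most abundant form of the membrane ring subunit c (Atp5g2), and Ndufab1 and Atp5g3, which are described for the Fa2h cluster. Uqcrc1, Sdhaf4 and Ndufs5 also held the NRF1 motif. Ndufa4, Sdhb and Cox7b, which are described below too, held none of the 4 motifs, and Ndufa4l2 and Sdhc were not among the matched members.

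Each library held between 134449247 and 194673581 UMIs, the unique molecular identifiers that count captured transcripts, in 7370 to 16254 barcodes. Barcodes shared by pairs of libraries numbered 15 to 70. Because mt- genes are part of what is described, barcodes with up to 10% mitochondrial UMIs were kept, 67250 male and 65524 female cells. A limit of 5% would have removed 6286 male barcodes (9.19%) and 2519 female barcodes (3.77%). Cells were clustered within each sex without the 111 members, and clusters were named from marker lists. All 6 markers of basal, 9 of proliferating, 8 of suprabasal or spinous, 8 of terminally differentiated, 5 of migratory, 7 of Langerhans cell-like (LC-like) and 6 of T cell-like cells were higher in their class than over all cells in both sexes. A small cluster led by Fa2h, a fatty acid 2-hydroxylase (193 male and 91 female cells), and a male cluster led by Aox3, an aldehyde oxidase (1611 cells), met no marker list and are called by those genes. Levels are given in CPM, the UMIs of a gene scaled to the total UMIs of a mouse and class, so that 10000 CPM are 1% of the UMIs, and levels over all cells also depend on the mix of classes. In this assay of transcript 3′ ends, UMIs are not expected to scale with transcript length. Capture of the RNA of each gene was not measured, so levels of different genes are compared only as counts. Male and female libraries were counted with different versions of the software, so sex and counting cannot be told apart and levels were not compared between the sexes. Female HFD replicate 2 had the highest mitochondrial share of the 6 females, and results that rest on it are also given without it.

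Over the epidermis, the nuclear members held about as many UMIs in every living keratinocyte layer, far fewer in terminally differentiated cells and the most in the Fa2h cluster. In males, nuclear members held 2.25% ± 0.0822 (SD, n = 6 mice) of the UMIs of basal cells, 2.43% ± 0.0958 of proliferating cells, 1.98% ± 0.0899 of suprabasal cells, 1.00% ± 0.195 of terminally differentiated cells and 4.18% ± 0.303 of the Fa2h cluster. In females the same order held, with 1.78% ± 0.0650 in basal, 2.03% ± 0.0535 in proliferating, 1.72% ± 0.0268 in suprabasal, 0.910% ± 0.0731 in terminally differentiated cells and 3.81% ± 0.182 in the Fa2h cluster. The mt- genes held more UMIs than the nuclear members in every class but female terminally differentiated cells, and the classes were ordered much alike: in males 3.77% ± 0.265 in basal, 3.60% ± 0.248 in proliferating, 3.11% ± 0.208 in suprabasal, 1.42% ± 0.159 in terminally differentiated cells and 6.51% ± 0.660 in the Fa2h cluster. In females the mt- share ranged from 0.873% ± 0.140 in terminally differentiated cells over 2.25% ± 0.321 in basal cells to 5.54% ± 0.651 in the Fa2h cluster. Among the immune classes, LC-like cells had nuclear shares of 1.85% ± 0.116 in males and 1.46% ± 0.0919 in females, and T cell-like cells 2.04% ± 0.149 and 1.68% ± 0.0616. The male Aox3 cluster (2.06% ± 0.0498), migratory cells (2.05% ± 0.0739) and T cell-like cells did not differ beyond their spread. Class levels are a description without a test, since the classes were made from the same cells.

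**Figure D1:**
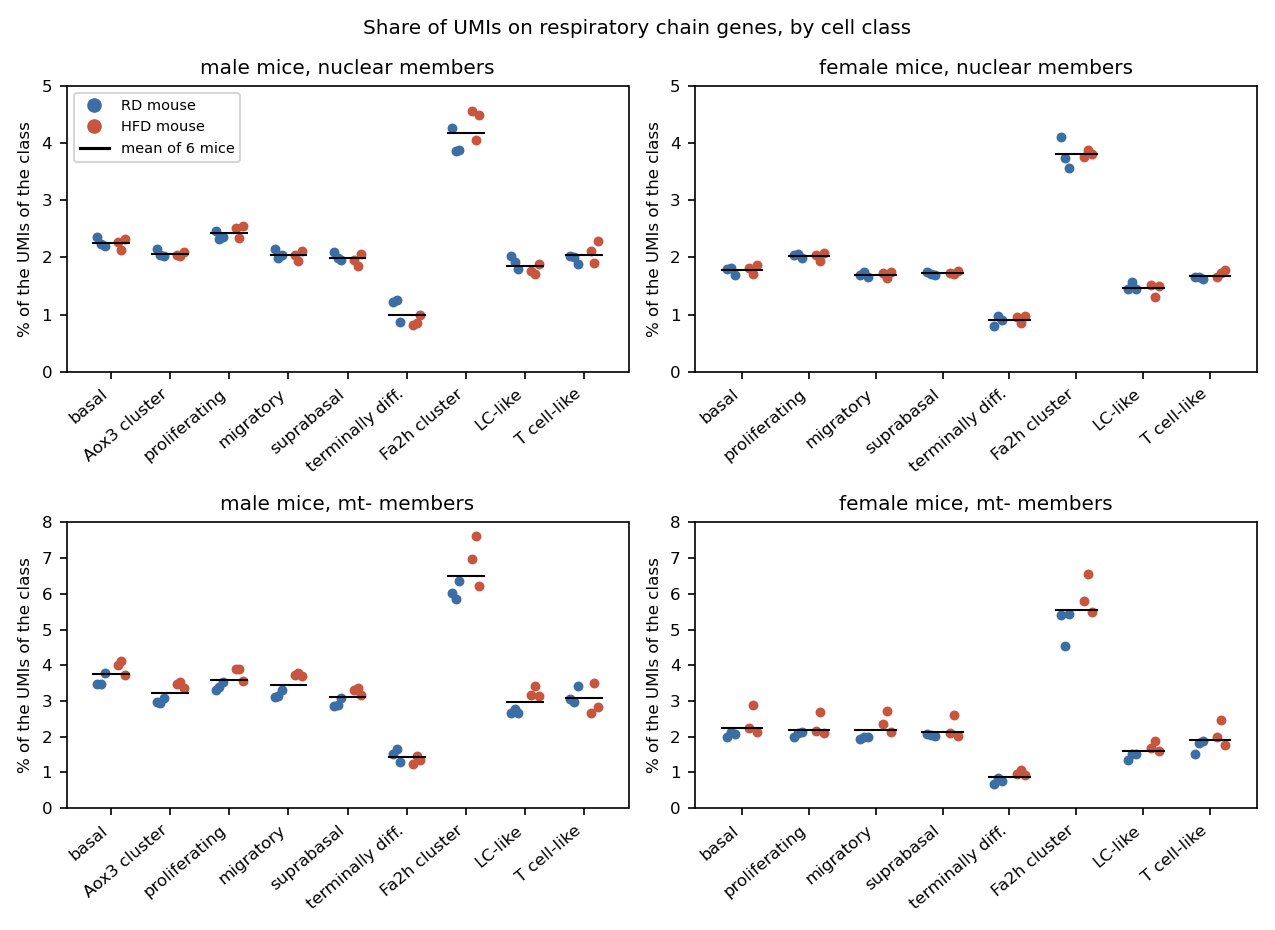
Percent of the UMIs of each class on nuclear members (top) and mt- genes (bottom), for male (left) and female (right) mice. Each point is 1 mouse, blue on RD and red on HFD, and the line is the mean of 6 mice. In every panel the Fa2h cluster lies above and the terminally differentiated class below all other classes.

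Among members that reached 20 CPM in some class other than the Fa2h cluster, this cluster was the class of highest level for 77 of 86 nuclear members in males and 80 of 86 in females, and for 13 of 13 mt- genes in males and 12 of 12 in females. Among all genes chosen in that way, 19.7% in males and 17.6% in females peaked in this cluster. For the same genes, the median log2 ratio against all cells was 1.01 in males and 1.02 in females for nuclear members and 1.251 and 1.428 for mt- genes, compared with -0.20 and -0.62 for all genes. Cox7b, a complex IV subunit, reached 1102 CPM in males and 1228 CPM in females in the cluster, against 305 and 233 CPM in all cells. Ndufab1, the mitochondrial acyl carrier protein that is also a complex I subunit, stood at 661 and 621 CPM against 188 and 174 CPM. Atp5g3, a subunit c gene, stood at 750 and 783 CPM against 220 and 231 CPM. Cells of this cluster were large by UMIs, with a median of 20739 UMIs in males and 16957 in females, and the female values rest on 5 to 28 cells per mouse. A limit of 5% mitochondrial UMIs would have removed 160 of the 207 male barcodes of this cluster (77.3%) and 63 of the 99 female barcodes (63.6%).

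Terminally differentiated cells were the class of lowest level for 84 of 87 nuclear members in males and 86 of 89 in females, and for 13 of 13 mt- genes. Among all genes at that level, 60.1% and 61.8% were lowest there. From suprabasal to terminally differentiated cells, 85 of 87 nuclear members in males and 88 of 89 in females were lower in 6 of 6 mice, with medians of -1.38 and -1.64 on the log2 scale, compared with -1.01 and -1.26 for all genes (70.0% and 72.6% lower in 6 of 6 mice). All 13 mt- genes were lower too, with medians of -1.27 and -1.36. Uqcrb, a subunit of complex III, differed least (-0.13 in males and -0.20 in females), whereas Atp5g1 (-1.94 and -2.12) and Atp5b, the catalytic beta subunit of ATP synthase (-1.92 and -2.03), were among the members with the largest differences. Median UMIs per terminally differentiated cell were 15263 in males and 15000.5 in females, above the 12537 and 12639 of suprabasal cells, while only 1507.5 and 1600.5 genes were detected per cell.

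**Figure D2:**
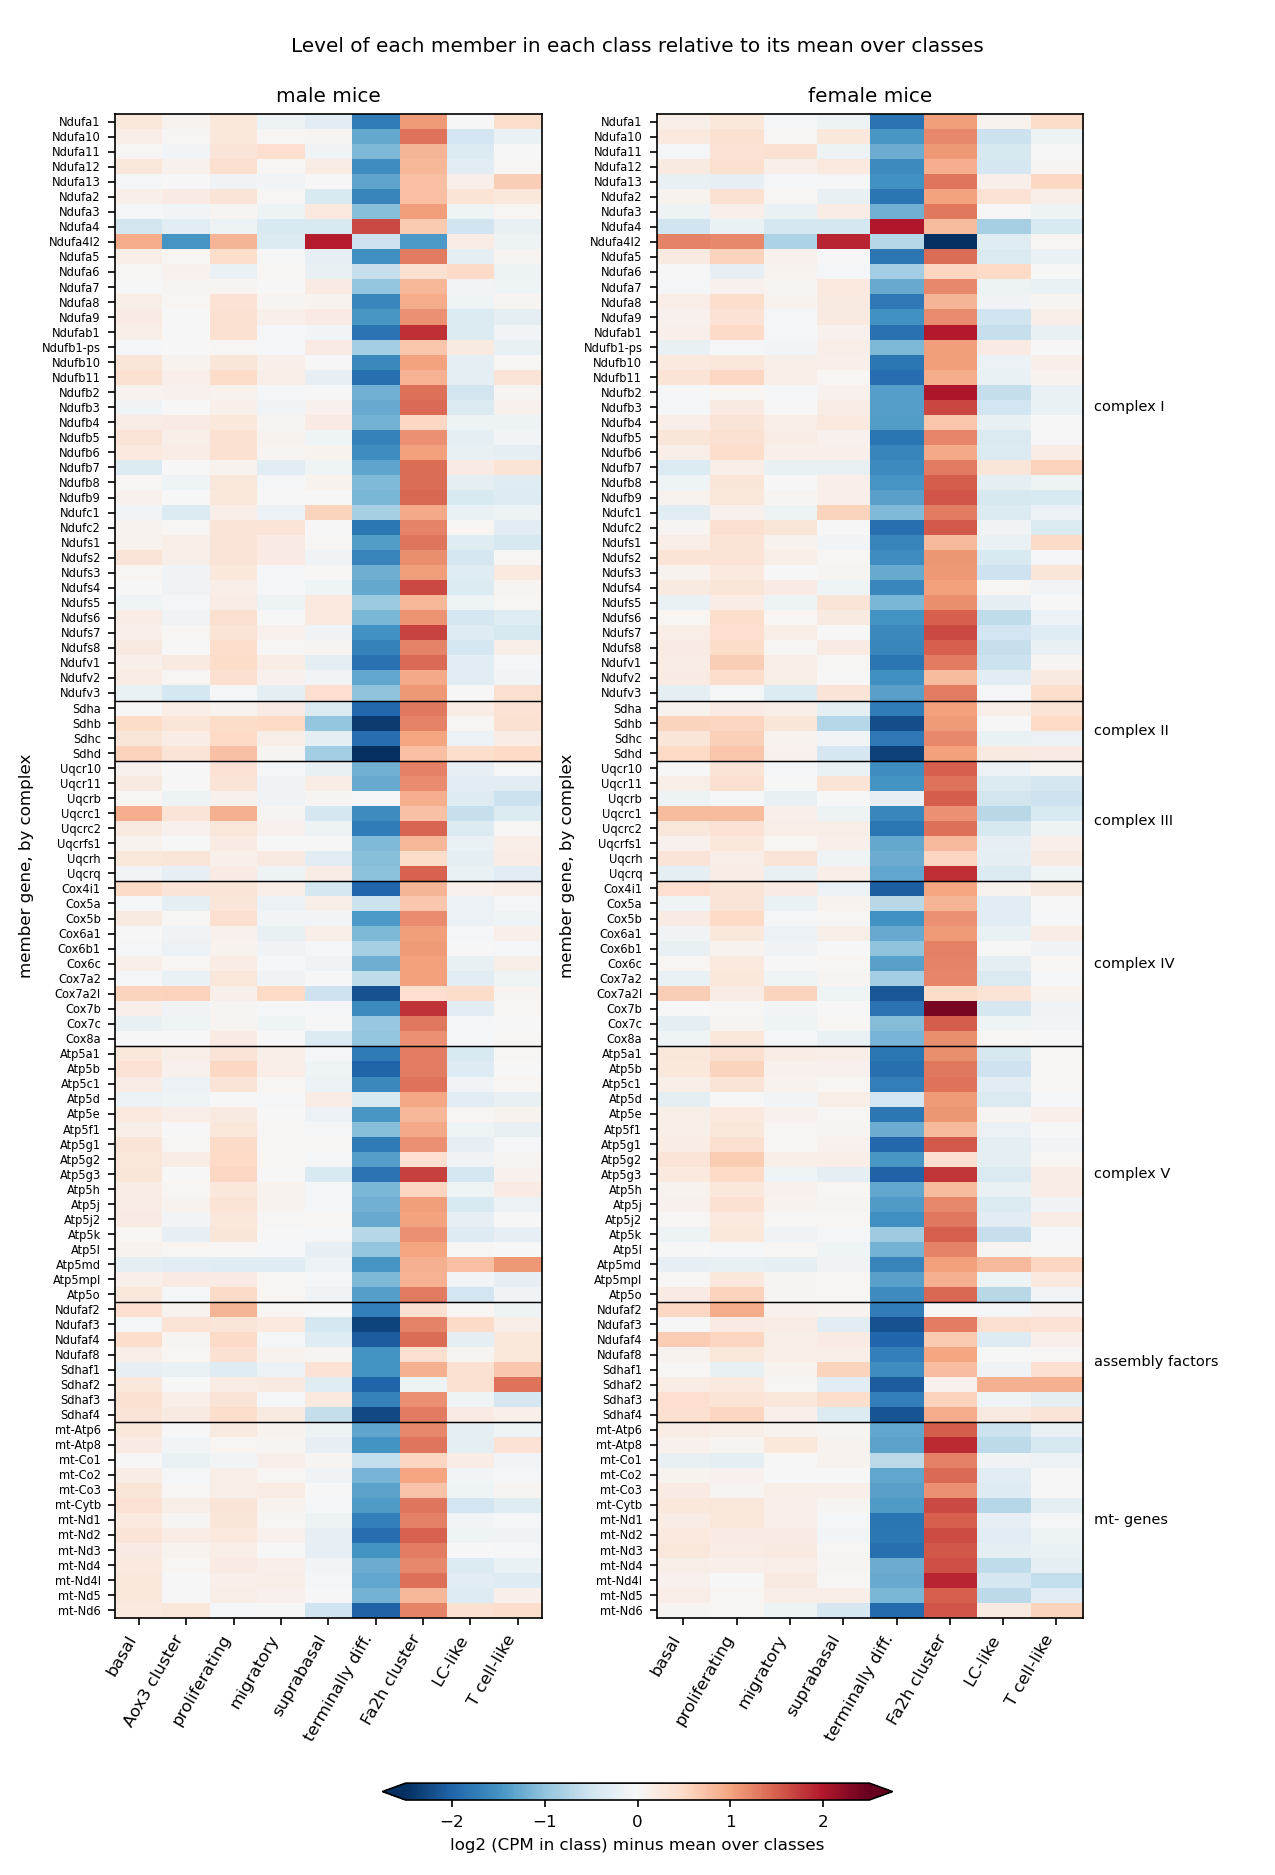
Level of each member that reached 20 CPM in some class, as log2 CPM minus its mean over the classes, for male and female mice, with members in rows by complex and classes in columns. Colors end at -2.5 and 2.5. Terminally differentiated cells are the low column and the Fa2h cluster the high column for nearly every member, and Ndufa4 and Ndufa4l2 stand apart in complex I.

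Among members that reached 20 CPM in some class, Ndufa4 was the only one that was higher in terminally differentiated than in suprabasal cells in 6 of 6 mice of each sex. Ndufa4 (chr6:11900292-11907497, minus strand) was named as a complex I subunit and is now placed with complex IV. Its level was 387 CPM in suprabasal and 1577 ± 241 CPM in terminally differentiated cells of males, and 552 and 3007 ± 297 CPM in females, log2 ratios of 2.01 ± 0.13 (SD, n = 6 mice) and 2.44 ± 0.16. In single mice, terminally differentiated cells held 1829, 1402 and 1344 CPM on RD and 1764, 1330 and 1794 CPM on HFD in males, and 3186, 2985 and 3384 CPM on RD and 3001, 2992 and 2493 CPM on HFD in females. The lowest of these 12 values was above the level of Ndufa4 in basal cells (367 CPM in males, 529 CPM in females) in each sex. No annotated gene overlapped Ndufa4.

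Ndufa4l2, a paralog of Ndufa4 known to be induced in low oxygen (chr10:127514967-127517154, plus strand), had a different pattern. It was highest in suprabasal cells, at 628 ± 87 CPM in males and 361 ± 33 CPM in females, above basal (305 and 229 CPM) and proliferating cells (291 and 223 CPM). It was low in terminally differentiated cells (112 and 58.6 CPM), in migratory cells (127 and 56.0 CPM) and in the Fa2h cluster (59.4 and 15.9 CPM). Between suprabasal and basal cells its log2 ratio was 1.04 in males and 0.66 in females, the largest positive ratio of a member in males. The male Aox3 cluster, at 58.1 CPM, also had little of it.

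**Figure D3:**
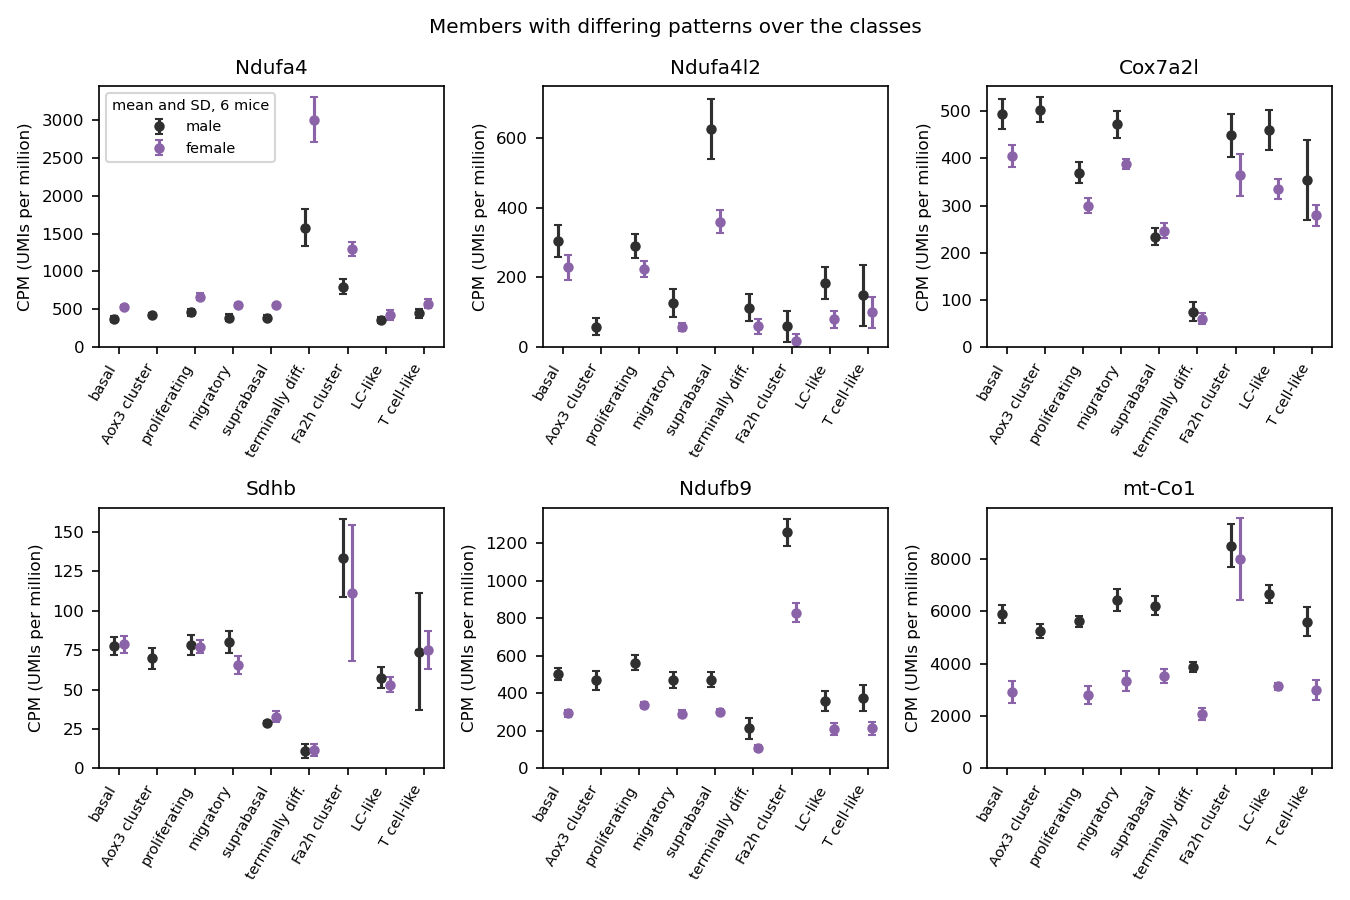
CPM of 6 members in each class, as mean and SD of 6 mice, for males (black) and females (purple). Ndufa4 is highest in terminally differentiated cells, Ndufa4l2 in suprabasal cells, and Sdhb and Cox7a2l are lower in suprabasal than in basal cells. Like most members, Ndufb9 and mt-Co1 are highest in the Fa2h cluster and lowest in terminally differentiated cells. From basal to suprabasal cells mt-Co1 is higher, unlike most mt- genes.

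From basal to suprabasal cells the members did not move together. The median log2 ratio of nuclear members was -0.17 in males and -0.04 in females, compared with -0.16 and -0.20 for all genes, and 57 of 87 and 43 of 89 members were lower in 6 of 6 mice while 20 and 27 were higher. Of all genes, 53.0% and 57.0% were lower and 31.6% and 24.8% higher in 6 of 6 mice. Of the 13 mt- genes, 12 in males and 5 in females were lower in 6 of 6 mice, and 1 in each sex was higher. Their median log2 ratios were -0.37 and -0.10. Complex II differed most, with medians of -0.96 and -0.64, compared with -0.09 and 0.01 for complex I, -0.19 and -0.05 for complex III, -0.01 in both sexes for complex IV and -0.29 and -0.08 for complex V. Sdhb, the iron-sulfur subunit of succinate dehydrogenase, stood at 77.6 CPM in basal and 28.9 CPM in suprabasal cells of males and at 78.6 and 32.7 CPM in females, log2 ratios of -1.39 ± 0.07 and -1.24 ± 0.14. Sdhd, a membrane anchor of the same complex, stood at 63.02 and 23.42 CPM in males and 71.0 and 37.2 CPM in females, ratios of -1.39 ± 0.08 and -0.92 ± 0.07. Uqcrc1, a core subunit of complex III (-1.33 and -0.91), Cox7a2l, a supercomplex factor (-1.08 and -0.71), Cox4i1 of complex IV (-0.92 and -0.56) and Sdhaf4, an assembly factor of complex II (-0.89 and -0.73), were also lower. Ndufc1 (0.62 and 0.84) and Ndufv3 (0.58 and 0.56) of complex I, Sdhaf1 (0.55 and 0.51), Ndufs5 (0.35 and 0.48) and Atp5d of complex V (0.31 and 0.38) were higher. Thus genes of a single complex went in opposite directions between these layers.

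The suprabasal class held several clusters, and the subunits of complex II were lower in those led by Serpinb3a. In males, the cluster led by Il34 had 38.9 ± 0.723 CPM of Sdhb and the cluster led by Serpinb3a had 14.8 ± 1.20 CPM. Females had 3 suprabasal clusters, led by Mettl7a1, Gsta2 and Serpinb3a, with 53.9, 24.8 and 12.3 CPM of Sdhb. Sdhd followed the same order, with 32.3 and 11.2 CPM in males and 57.1, 32.3 and 15.2 CPM in females. The other subunits differed less, with Sdhc at 57.4 and 38.6 CPM in males and 62.6, 51.6 and 39.2 CPM in females, and Sdha, which carries the flavin, at 43.0 and 34.8 CPM in males and 46.6, 37.6 and 31.2 CPM in females. Uqcrc1 (121.5 and 57.3 CPM in males; 145.9, 88.3 and 50.4 CPM in females) and Cox4i1 (922.6 and 476.4 CPM; 868.7, 639.5 and 400.9 CPM) were ordered alike. Levels of mt-Co1 did not follow this order, with 6175 and 6273 CPM in males and 3274, 3484 and 3863 CPM in females. Unlike most mt- genes, mt-Co1 was also higher in suprabasal than in basal cells. Levels of the other mt- genes in these clusters are not given here.

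Proliferating cells had slightly more of most nuclear members than basal cells: 60 of 87 in males and 70 of 89 in females were higher in 6 of 6 mice, against 40.2% and 34.3% of all genes, with medians of 0.14 and 0.20 on the log2 scale against 0.06 and 0.01 for all genes. Examples were Ndufb7 (0.42 and 0.48), Ndufv1, which binds NADH (0.33 and 0.43), Cox7a2 (0.33 and 0.43) and the assembly factor Ndufaf2 (0.42 and 0.39). Cox7a2l was lower (-0.42 and -0.44), and the median of mt- genes was -0.07 and -0.03. In migratory cells, medians against basal cells were -0.10 and -0.06 (0.12 and 0.02 for all genes), with Ndufa4l2 (-1.30 and -2.02) and Uqcrc1 (-0.85 and -0.65) lower and Ndufa11 of complex I (0.38 and 0.41) higher. LC-like cells had less of most nuclear members than all cells (medians -0.24 and -0.36, against -0.05 and -0.10 for all genes). Atp5md, a small subunit of ATP synthase, was higher there (1.00 and 0.93), as was Ndufa6 (0.60 and 0.55), while Uqcrc1 was lower (-0.83 and -0.98).

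Of the tissue-specific isoforms, the epidermis held mainly the forms known from most tissues. Averaged over the 12 mice, Cox4i1 stood at 867 CPM and Cox4i2 at 0.273 CPM, Cox6a1 at 188 and Cox6a2 at 0.0238 CPM, Cox6b1 at 353 and Cox6b2 at 1.16 CPM, and Cox8a at 483 CPM against 0.0170 CPM of Cox8b and 0.0172 CPM of Cox8c. Cox7a2 stood at 383 CPM, Cox7a2l at 306 CPM and Cox7a1, the form of heart and muscle, at 0.172 CPM. Mean levels of Cox7a1 were 5.89 CPM in LC-like and 8.44 CPM in T cell-like cells of males and 2.80 CPM in both of these classes in females, and 6.08 CPM in the Fa2h cluster of males and 4.27 CPM in that of females. Values of single mice ran from 0 to 19.6 CPM in male and 0 to 10.8 CPM in female T cell-like cells and from 0 to 13.7 CPM in the female Fa2h cluster. Male T cell-like cells numbered 28 to 67 per mouse, with a median of 1598 UMIs per cell. Levels of Cox7a1 in T cell-like cells and the Fa2h cluster thus rest on very few UMIs per mouse, and no difference between classes or mice is read from them. Cox4i2 reached 7.67 and 3.99 CPM in the Fa2h cluster and 3.21 and 5.73 CPM in LC-like cells of males and females, and 4.39 CPM in the male Aox3 cluster, with single mice of the male Fa2h cluster from 0.778 to 23.2 CPM. In the Fa2h cluster, levels of Cox4i2 also rest on few UMIs per mouse. The genes of subunit c, which encode the same mature protein, were all present, with Atp5g2 at 515, Atp5g1 at 381 and Atp5g3 at 225 CPM. Over all cells, Cox4i1 was the nuclear member of the highest level in both sexes (959 CPM in males, 775 CPM in females). It was followed by Atp5l (531 CPM) and Atp5g2 (521 CPM) in males and by Ndufa4 (651 CPM) and Atp5l (594 CPM) in females, and Ndufa4 stood at 490 CPM in males. In complex III, Uqcrh (413 CPM in males, 354 CPM in females) and Uqcr11 (374 and 311 CPM) had the highest levels in both sexes, and Ndufaf8 (43.9 and 46.0 CPM) and Ndufaf2 (37.9 and 49.5 CPM) those of the assembly factors.

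The mt- genes differed widely in level from each other. In males, mt-Atp6 (6865 CPM), mt-Co1 (5880 CPM), mt-Co3 (5423 CPM) and mt-Co2 (5118 CPM) were the highest over all cells, and mt-Nd4l (175 CPM), mt-Nd3 (148 CPM), mt-Atp8 (112 CPM) and mt-Nd6 (13.6 CPM) the lowest. In females the values of these genes were 5199, 3191, 3856 and 3057 CPM and 88.9, 295, 42.4 and 10.6 CPM. Of the remaining mt- genes, mt-Cytb was at 3361 CPM in males and 2117 CPM in females, mt-Nd1 at 1902 and 1489 CPM, mt-Nd4 at 1562 and 1201 CPM, mt-Nd2 at 1299 and 559 CPM and mt-Nd5 at 454 and 241 CPM. mt-Nd6 is the only member read from the other strand of the mitochondrial genome. Some of these genes share bases: mt-Atp8 (chrM:7766-7969) overlaps mt-Atp6 by 43 bases, and mt-Nd4l (chrM:9877-10173) overlaps mt-Nd4 by 7. Levels of mt-Atp8 and mt-Nd4l are therefore uncertain, since a read that lies in both genes of a pair cannot be given to either. Capture was not measured for any mt- gene, mt-Nd6 included, so the order of these levels is an order of counts.

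Over all cells, the mt- share was higher in each HFD mouse than in any RD mouse in both sexes. In males it was 2.97%, 3.05% and 3.23% on RD and 3.40%, 3.47% and 3.28% on HFD, a difference of 0.300 percentage points (0.244 to 0.372 with any single mouse left out). In females it was 1.97%, 2.03% and 1.98% on RD and 2.13%, 2.66% and 2.04% on HFD, a difference of 0.282 points, which was 0.0920 without female HFD replicate 2. The groups did not overlap, and the two-sided exact permutation test gave p = 0.1 in each sex, the smallest value that 3 mice against 3 can give. By class, the groups did not overlap in male Aox3, LC-like, migratory, proliferating and suprabasal cells and in female Fa2h, LC-like, migratory and terminally differentiated cells, each with an exact p = 0.1. The largest of these male differences were in migratory cells (3.12%, 3.15% and 3.31% on RD, 3.74%, 3.77% and 3.69% on HFD, a difference of 0.542 points) and LC-like cells (2.65%, 2.77% and 2.67% on RD, 3.16%, 3.41% and 3.14% on HFD, 0.539 points). In females, LC-like cells had 1.35%, 1.53% and 1.53% on RD and 1.70%, 1.87% and 1.60% on HFD, a difference of 0.252 points that was 0.177 without female HFD replicate 2. In female suprabasal cells the difference of 0.205 points shrank to 0.0242 without that mouse, in proliferating cells from 0.248 to 0.0575 and in basal cells from 0.347 to 0.116. Male T cell-like and terminally differentiated cells went the other way (-0.146 and -0.152 points), with overlapping groups. The keratin Krt10 was lower on HFD in male T cell-like cells (log2 fold change -2.54, adjusted p = 0.0205 by edgeR), and in the T cell-like cells with at most 1% of UMIs on 4 keratins (26 to 58 cells per mouse) the difference was 0.0629 points, with overlapping groups and an exact p of 1. In LC-like cells under the same limit the groups again did not overlap, with differences of 0.610 points in males and 0.301 in females. In female T cell-like cells the difference was 0.334 points with overlapping groups (exact p = 0.3), and it was 0.143 without female HFD replicate 2. Under the limit on keratins the difference in these cells was 0.447 points with groups that did not overlap (exact p = 0.1). Its value under that limit without female HFD replicate 2 is not given here. The share of nuclear members overlapped between diets in every class of both sexes, with exact p between 0.2 and 1. Gm42418, a locus that takes up ribosomal RNA reads, moved with the diet in males, at 7869, 7709 and 9968 CPM on RD and 14680, 15748 and 12110 CPM on HFD (log2 fold change 0.79, adjusted p = 0.242, edgeR), and its part in the mt- share was not tested.

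Nuclear members hardly differed between diets when tested singly. UMIs were summed per mouse and class, and HFD was compared with RD by edgeR's quasi-likelihood test with Benjamini-Hochberg adjustment over all genes. In males, 0 of 797 pairs of nuclear member and class passed an adjusted p of 0.05 by edgeR (0.061% of pairs over all genes) and 3 by DESeq2, and 49 pairs (6.15%) had an unadjusted p under 0.05, against 9.65% of pairs over all genes. In females, 1 of 632 pairs passed (1.04% over all genes), and 28 pairs (4.43%) had an unadjusted p under 0.05, against 14.9% over all genes. Both shares were below those of all genes.

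The called pair was Sdhd in female suprabasal cells. Sdhd (chr9:50596357-50603812, minus strand, with the promoter window shown above) stood there at 35.2, 31.8 and 32.3 CPM on RD and 40.8, 44.2 and 38.9 CPM on HFD, so each HFD mouse was above each RD mouse. The log2 fold change was 0.27 (SE 0.06, adjusted p = 0.0475 by edgeR), in a fit where 2.67% of all genes passed. Over all cells of the same females, Sdhd stood at 50.4, 48.3 and 44.7 CPM on RD and 59.1, 61.5 and 59.1 CPM on HFD (0.27, adjusted p = 0.0564 by edgeR), and in basal cells the log2 fold change was 0.26 (adjusted p = 0.0854). In males it stood at 41.95, 29.96 and 45.19 CPM on RD and 42.5, 37.9 and 43.3 CPM on HFD over all cells, where the groups overlapped. Its male log2 fold change in suprabasal cells was 0.04 (adjusted p = 0.965), and the difference between the sexes did not pass the test (interaction -0.24, adjusted p = 0.565 by edgeR). The call of Sdhd was lost when all 12 mice shared a fit, with the replicate number as a block and without any 1 mouse other than female HFD replicate 2, with log2 fold changes of 0.25 to 0.31. The other complex II subunits were not called in any class. In the same class, 21 of 92 nuclear members lay higher in every HFD female than in every RD female, against 16.9% of all genes, and 43 of the 92 had a positive log2 fold change.

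**Figure D4:**
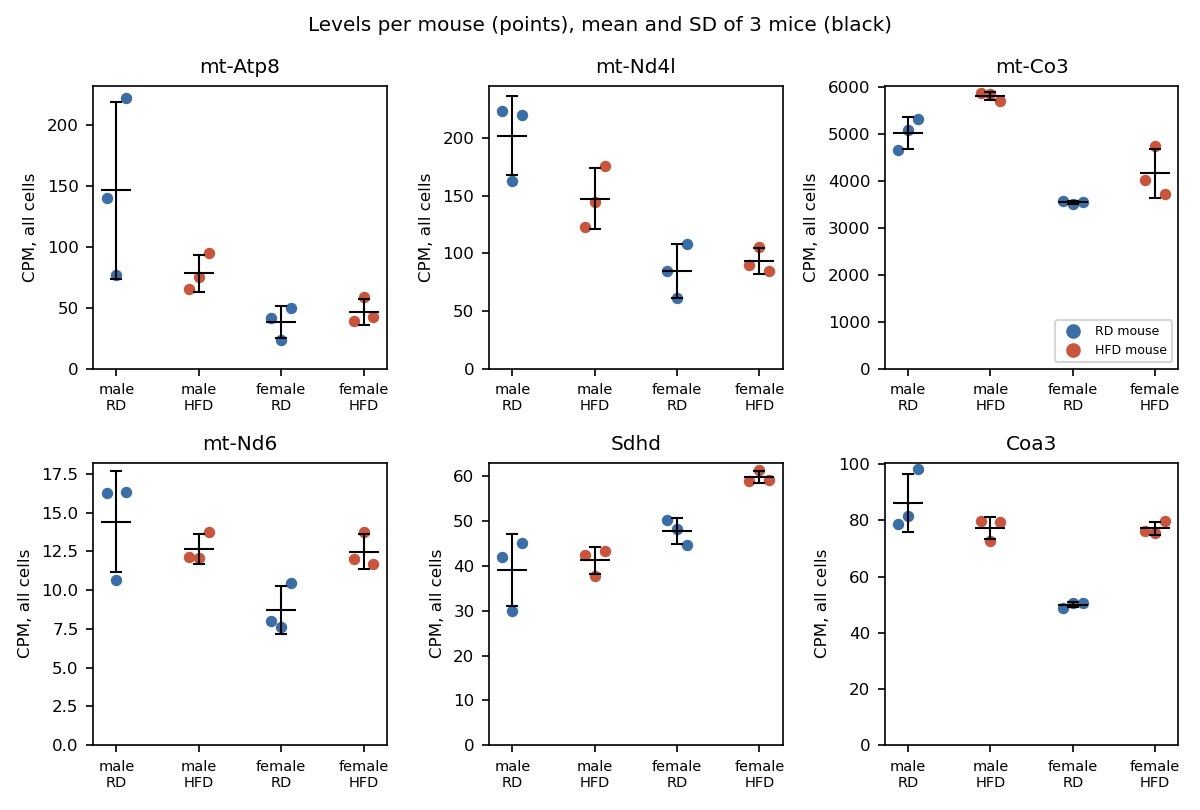
CPM over all cells of 5 members and of Coa3, a complex IV assembly factor outside the symbol rule, per mouse (points, blue on RD and red on HFD), with mean and SD of 3 mice in black. In males mt-Atp8 and mt-Nd4l tend downward on HFD with overlapping groups, and in females Sdhd, mt-Nd6 and Coa3 are higher in every HFD mouse.

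No mt- gene passed the adjusted threshold in either sex (0 of 116 pairs in males and 0 of 90 in females by edgeR, and 2 pairs in each sex by DESeq2). At an unadjusted p under 0.05 there were 42 male pairs (36.2%) and 22 female pairs (24.4%), by edgeR, above the 9.65% and 14.9% of pairs over all genes given above. mt- genes share transcripts and mice, so these pairs are not independent of each other. In males, 9 of 13 mt- genes had a positive log2 fold change over all cells (median 0.12), and in LC-like and migratory cells 10 of 13 (medians 0.20 and 0.18). Without male HFD replicate 2 the male median over all cells was 0.066. In male LC-like cells with at most 1% keratin UMIs, a limit added after seeing the data, the median was 0.34. There mt-Cytb (0.87, adjusted p = 0.000809) and mt-Atp6 (0.51, adjusted p = 0.0237) passed by edgeR, and the share of all genes that passed is not given here. Without that limit the lowest adjusted p of an mt- gene in male LC-like cells was 0.900 by edgeR. In females, 12 of 13 were positive over all cells (median 0.11), and 13 of 13 in basal, migratory and terminally differentiated cells (0.20, 0.23 and 0.27). Without female HFD replicate 2 these female medians were 0.024 over all cells and 0.077, 0.16 and 0.14 in the 3 classes. Over all genes, between 47.6% and 52.8% were positive. Groups did not overlap, with HFD higher, for 8 of 13 mt- genes in male migratory cells (4.39% of all genes), 6 in male LC-like cells (6.7%), 4 in male suprabasal cells (3.79%), 8 in female migratory cells (11.5%) and 7 in female LC-like cells (8.22%). In the other male classes they numbered 7 in the Aox3 cluster (4.56%), 3 each in the Fa2h cluster (8.79%), basal cells (3.53%) and proliferating cells (7.31%), and 0 in T cell-like (10.8%) and terminally differentiated cells (5.18%). In the other female classes they numbered 7 in terminally differentiated cells (8.93%), 2 each in basal (10.6%), proliferating (14.6%) and T cell-like cells (6.12%), and 0 in suprabasal cells (16.9%). In T cell-like cells 12 of the 13 mt- genes were tested. Lower in every HFD mouse were 2 mt- genes in the male Fa2h cluster, 2 in male terminally differentiated cells (18.5% of all genes) and 1 in male T cell-like cells. The shares of all genes lower in the Fa2h cluster and in T cell-like cells are not given here. No mt- gene was lower in every HFD mouse in the other classes. In the male Fa2h cluster, the keratin Krt5 (log2 fold change -1.21, adjusted p = 0.0377) and the heat shock genes Dnajb1 (-1.26, adjusted p = 0.00915) and Hspa1b (-1.25, adjusted p = 0.0377) were lower on HFD and Gm42418 was higher (0.93, adjusted p = 0.0339, all by edgeR), and their part in the mt- values there was not tested.

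The UMIs given to the mt- genes did not move as a block in males. Levels of mt-Atp8 and mt-Nd4l are uncertain, since each shares bases with another mt- gene. Whether their RNA moved apart from that of the overlapping gene was not tested. mt-Atp8, the short subunit of ATP synthase, stood at 139.5, 76.8 and 221.7 CPM on RD and 65.0, 74.7 and 94.3 CPM on HFD over all cells of males, so that male RD replicate 2 lay among the HFD mice. The log2 fold change was -0.86 (SE 0.31, adjusted p = 0.559 by edgeR) and ranged from -0.52 in LC-like to -1.45 in T cell-like cells, negative in every class. mt-Nd4l of complex I was at 223.6, 162.3 and 219.9 CPM on RD and 122.4, 144.2 and 175.5 CPM on HFD (-0.41, adjusted p = 0.580). Without male RD replicate 2, mt-Atp8 passed the threshold in basal cells (-1.23, adjusted p = 0.0101 by edgeR) and in 5 other classes. Leaving out that mouse by itself parts the groups over all cells, so these calls are not taken as an effect of diet. Shares of all genes called without that mouse are not given here. In females the log2 fold changes of mt-Atp8 were positive, 0.22 over all cells with overlapping groups (41.4, 23.8 and 49.8 CPM on RD, 38.9, 58.5 and 41.9 CPM on HFD). In contrast, mt-Co3, a core subunit of complex IV, was at 4655, 5092 and 5334 CPM on RD and 5883, 5861 and 5715 CPM on HFD in males (0.26, adjusted p = 0.516), higher in every HFD mouse, and at 3569, 3503 and 3561 CPM on RD and 4015, 4754 and 3736 CPM on HFD in females.

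mt-Nd6, a complex I subunit, had the lowest adjusted p of any mt- gene and class in females. Over all cells it stood at 8.04, 7.65 and 10.5 CPM on RD and 11.997, 13.8 and 11.7 CPM on HFD, with no overlap (log2 fold change 0.46, adjusted p = 0.0770 by edgeR). In proliferating cells, where 1.8% of all genes passed, its log2 fold change was 0.55 (adjusted p = 0.0502). In males it was at 16.3, 10.6 and 16.4 CPM on RD and 12.1, 12.1 and 13.8 CPM on HFD, with overlap. The interaction of diet and sex for mt-Nd6 over all cells was -0.63 (adjusted p = 0.193 by edgeR), and that of mt-Atp8 was -1.09 (adjusted p = 0.259), so neither difference between the sexes passed the test.

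**Figure D5:**
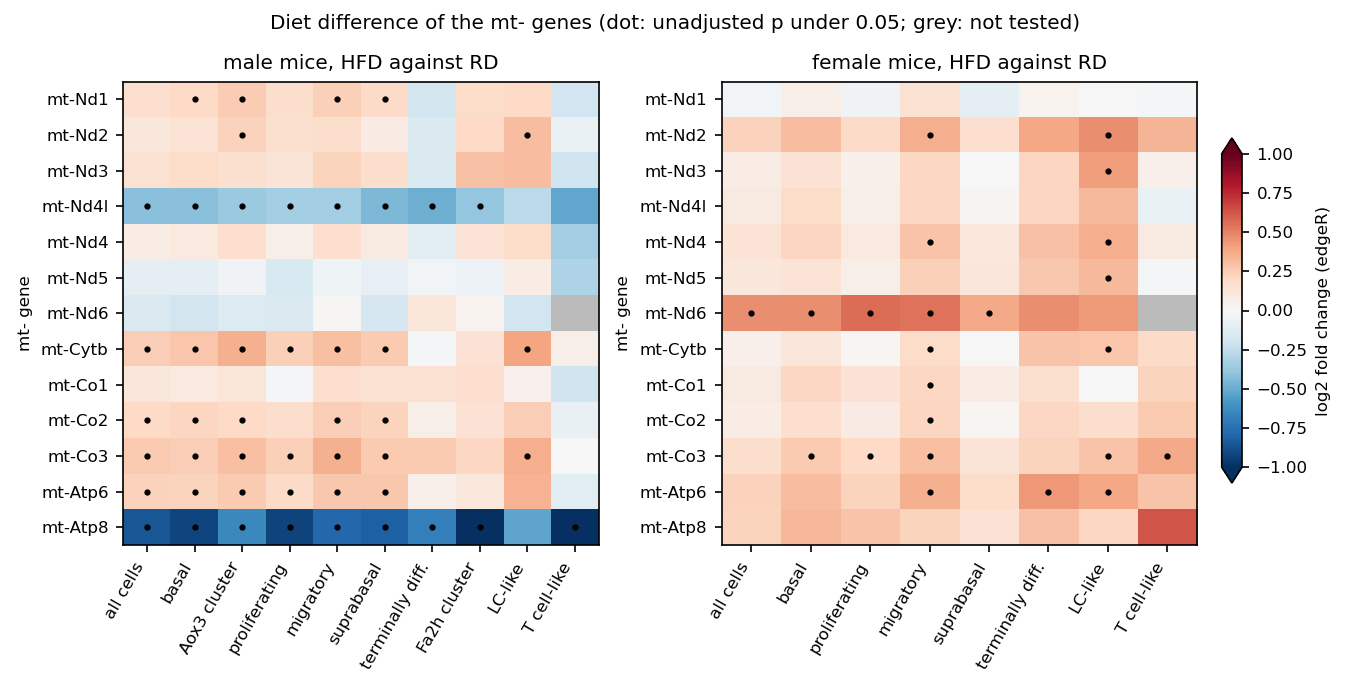
Log2 fold change of HFD against RD (edgeR) for each mt- gene (rows) in all cells and in each class (columns), for male and female mice. Dots mark an unadjusted p under 0.05, gray cells were not tested, and colors end at -1 and 1. mt-Atp8 and mt-Nd4l are negative in every male column, and nearly all female cells are positive.

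In male terminally differentiated cells most nuclear members leaned toward lower levels on HFD. Of 91 nuclear members tested, 14 had a positive log2 fold change (47.6% of all genes), the median was -0.22 (-0.03 over all genes), 29 had an unadjusted p under 0.05 (26.2% of all genes) and 24 were lower in every HFD than in every RD mouse (18.5% of all genes). None passed the adjusted threshold by edgeR, where the lowest value was 0.0855, and Ndufb5, Atp5g1 and Ndufaf8 passed by DESeq2. Ndufaf8, an assembly factor of complex I, was at 21.5, 23.5 and 13.3 CPM on RD and 7.64, 10.4 and 11.3 CPM on HFD (-0.75, adjusted p = 0.0855 by edgeR). Atp5g1 was at 173, 227 and 89.0 CPM on RD and 58.1, 88.9 and 81.6 CPM on HFD (-0.84, adjusted p = 0.0878), and Sdhb at 13.3, 18.2 and 10.7 CPM on RD and 5.86, 9.28 and 7.81 CPM on HFD (-0.64, adjusted p = 0.0914). The values of Atp5g1 in male RD replicate 3 and male HFD replicate 2 nearly met. The nuclear share in this class was 1.22%, 1.26% and 0.864% on RD and 0.820%, 0.851% and 0.984% on HFD. The libraries of these mice held 14982, 16254 and 9614 barcodes on RD and 7370, 10451 and 11310 barcodes on HFD. Doublets were kept, and the part of barcode number in these shares was not tested. Gm42418 was higher on HFD in this class (1.18, adjusted p = 0.0858 by edgeR), and its part in these values was not tested. In male LC-like cells 14 of 89 nuclear members had a positive log2 fold change (median -0.13), against 50.2% of all genes, with the lowest adjusted p at 0.900. That median was -0.041 without the highest doublet scores and -0.026 (34 of 86 positive) in cells with at most 1% keratin UMIs. Other classes leaned upward. In the male Fa2h cluster 70 of 89 nuclear members were positive (49.6% of all genes), and 15 were higher in every HFD mouse (8.79% of all genes). Positive were also 68 of 92 in male proliferating cells (49.2% of all genes) and 62 of 89 in female terminally differentiated cells (51.4%).

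The effect of diet was not shown to differ between the sexes for any member. Over classes, 0 of 628 nuclear pairs and 0 of 90 mt- pairs passed the interaction test by edgeR (0.119% of pairs over all genes), and 6 pairs passed by DESeq2. By edgeR, 44 nuclear pairs (7.01%) and 12 mt- pairs (13.3%) had an unadjusted p under 0.05, against 12.4% over all genes. In terminally differentiated cells 28 of 91 nuclear members had an unadjusted p under 0.05 for the interaction, against 27% of all genes in that class. The lowest adjusted p there was that of Atp5g1 (0.0745), with an interaction of -1.14, followed by Sdhb (-1.07, adjusted p = 0.0745) and Uqcrc1 (-0.90, adjusted p = 0.0752), all with the male log2 fold change below the female.

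Genes that belong to or serve the chain but fall outside the symbol rule were read as lists in the same fits. The list of 26 assembly factors of complexes III and IV gave 2 called genes of 25 tested over all female cells, both higher on HFD, where 2.16% of all genes passed, and 0 of 25 in males by edgeR, where 2 had an unadjusted p under 0.05. Coa3, which acts early in the assembly of complex IV, stood at 48.9, 50.6 and 50.5 CPM on RD and 76.1, 75.5 and 79.9 CPM on HFD in females (log2 fold change 0.57, adjusted p = 0.0206 by edgeR), higher in every HFD female. In males it was at 78.8, 81.7 and 98.2 CPM on RD and 79.7, 72.7 and 79.4 CPM on HFD. The interaction of diet and sex was -0.70 (adjusted p = 0.0210 by edgeR), so the female log2 fold change was above the male. Coa6, a copper protein of the same assembly line, had a female log2 fold change of 0.31 over all cells (adjusted p = 0.0447 by edgeR).

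In female suprabasal cells, Fh1 of the tricarboxylic acid cycle rose by 0.285 on the log2 scale (adjusted p = 0.0476 by edgeR, 1 of 13 genes of the cycle). Of the 78 genes of the mitochondrial ribosome, 3 rose in that class, Mrps25 (0.45), Mrpl51 (0.28) and Mrpl24 (0.26), and 58 of 78 had a positive log2 fold change, where 2.67% of all genes passed and 51.1% were positive. In male suprabasal cells 12 of 78 were positive (median -0.08), against 48.0% of all genes, and 0 were called by edgeR, with 5 at an unadjusted p under 0.05. The interaction passed in suprabasal cells for Mrps25 (-0.57, adjusted p = 0.0361 by edgeR) and for Mrpl36 (-0.41, adjusted p = 0.0488), where 0.528% of all genes passed. In the lists named next, no gene was called by edgeR over all cells or in female suprabasal cells, and at most 4 of a list had an unadjusted p under 0.05. These lists were cytochrome c, its lyase and Cyc1 of complex III (3 genes), other assembly factors of complexes I and V (10), carriers and porins (6), mitochondrial DNA replication and transcription (14), mitochondrial RNA stability (9), regulators of mitochondrial biogenesis (10), uncoupling proteins (6) and antioxidant proteins (6). Among the regulators, Yy1 (83.7 CPM), Nrf1 (28.6 CPM) and Gabpa (23.7 CPM) had the highest levels.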

How the data were processed

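Epidermal cells of 12 mice were captured with 10x Genomics 3′ chemistry. The authors deposited raw UMI counts per gene and barcode, made with Cell Ranger 6.1.0 (males) or 7.2.0 (females) per the file headers, against mm10, with no filter on genes or mitochondrial UMIs. The submitters' processing notes name Cell Ranger 7.2.0 for all and Seurat 5.0.0. Whether intronic reads were counted is not given in the sources used here. By default this software counts uniquely mapped sense reads, so members with near-identical pseudogenes are uncertain, and 34 members overlap a counted gene on the opposite strand.

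Barcodes counted as cells when they had 200 (males) or 500 (females) to 6000 genes and no more than 10% of UMIs on mt- genes. Doublets were not removed in the values given. Each sex was clustered (Python 3.11.15, leidenalg 0.10.2) on 2000 variable genes, members left out, with 10 principal components and 20 neighbors, at the lowest resolution giving at least 10 clusters. A cluster took a class name when at least 3 markers were in 0.1 of its cells with a log2 fold of at least 0.5. UMIs were summed per mouse and class. Diet was tested by edgeR in classes with at least 10 cells in each mouse, and shares and levels have no such minimum (the female Fa2h cluster held 5 to 28 cells per mouse). HFD and RD were compared within each sex, and the interaction (male minus female log2 fold change) over 12 mice, by the quasi-likelihood test of edgeR 4.0.16 (R 4.3.3, TMM, filterByExpr, Benjamini-Hochberg, threshold 0.05), which was tested on simulated data. The study itself tested single cells. Shares were compared by two-sided exact permutation tests. Class ratios are means over mice of the log2 ratio within a mouse, with 1 CPM added to both levels. Replicates are separate mice, and depth was 134449247 to 194673581 UMIs per library.

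Named genes are the mt- genes, the 3 highest members per complex and of the assembly factors, the isoform groups, the 5 members of widest class range per sex and called members. Genes of the class comparisons outside this rule were chosen after their values were seen. Members and lists were chosen with earlier results of these data known. Alternatives were DESeq2 1.42.0, its size factors, no filter on low counts, a replicate block, 1 fit of 12 mice, other limits on mitochondrial UMIs and genes, doublet removal, resolution 0.6, and leaving out each mouse. A limit of 1% keratin UMIs for LC-like and T cell-like cells was added after seeing the data. Gene positions are from GENCODE for GRCm38, in which all 111 members were found.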

Additional observations from a re-analysis of the deposited data

Results flagged for a closer look

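In 6 cases the effect of diet differed between male and female mice by the interaction term of edgeR over 12 mice, with the male log2 fold change below the female. They belong to Coa3, Mrps25 and Mrpl36, all outside the symbol rule. The cases of Coa3 come from overlapping cells of the same mice and are not independent. For Coa3 the interaction was -0.70 over all cells (adjusted p = 0.0210), -0.63 in basal cells (adjusted p = 0.0233), -0.78 in proliferating cells (adjusted p = 0.0352) and -0.70 in suprabasal cells (adjusted p = 0.0279). In suprabasal cells it was -0.57 for Mrps25 (adjusted p = 0.0361) and -0.41 for Mrpl36 (adjusted p = 0.0488), which shares 30 bases with Ndufs6 on the opposite strand. Because male and female libraries were counted with different software versions, sex and counting cannot be told apart in the levels of these genes.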

How the results depend on the processing

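Counts of pairs of member and class called at an adjusted p of 0.05 were small and moved with the processing, and the causes were not tested. A gene called in several classes is counted in each of them. Shares of all genes called under these alternatives are not given here, so the counts do not set the members apart from other genes. In males, nuclear pairs called numbered 0 in the values given, 3 with DESeq2 and 13 with no filter on low counts. They numbered 4 with the replicate block and 10 with no upper limit on genes. With 1 mouse left out they numbered 0 to 9 (9 without male RD replicate 3). Male mt- pairs numbered 0 in the values given, 2 with DESeq2 and 10 with no filter. With 1 mouse left out they numbered 0 to 8 (8 without male RD replicate 2). In females, nuclear pairs called numbered 1 in the values given, 0 with all 12 mice in a fit and 0 with the replicate block. With 1 mouse left out they numbered 0 to 4 (4 without female HFD replicate 2). Female mt- pairs numbered 0 in the values given, 2 with DESeq2, 1 with DESeq2 size factors and 8 with no filter. They numbered 1 with at most 5% mitochondrial UMIs, 1 with no upper limit on genes and 0 to 1 with 1 mouse left out. In cells with at most 1% keratin UMIs, mt- pairs called in male LC-like and T cell-like cells numbered 2 and not 0. Under that limit the mt- share of male T cell-like cells was 0.0629 points higher on HFD, against -0.146 points in all these cells. The interaction gave 0 pairs in the values given, 6 with DESeq2, 14 with no filter and 0 to 20 with 1 mouse left out (20 without female RD replicate 2). Mice of the same replicate number were not paired in the values given, and whether they share a batch was not tested. Correlations of the deviations of same-numbered male mice were 0.0207 to 0.214 over all cells, against -0.196 to 0.0361 for other pairs. In male basal cells they were 0.0481 to 0.110 against -0.0897 to 0.0319, and in male LC-like cells -0.225 to 0.203 against -0.279 to 0.368. In females they were -0.107 to 0.0303 over all cells, against -0.136 to 0.213 for other pairs. Log2 fold changes were followed for named members over all cells, for mt-Atp8, mt-Co3 and mt-Nd6 by class and for Sdhd in female suprabasal cells. Those of Ndufaf8, Atp5g1 and Sdhb in male terminally differentiated cells were not followed. Of the values followed, 2718 kept direction and side of the threshold, counting as unchanged the 108 sign changes within 1 SE. A further 32 newly passed, 7 no longer passed and 3 changed sign: Sdhb over all male cells without male RD replicate 2 (0.065, range with 1 mouse left out -0.043 to 0.065), mt-Nd6 in male migratory cells without that mouse (-0.22, range -0.22 to 0.26) and mt-Co3 in male T cell-like cells without male HFD replicate 2 (-0.19, range -0.19 to 0.14). Class shares mostly moved by less than 1 SD. The mt- share of male terminally differentiated cells was 1.15% without the highest doublet scores and 1.22% at resolution 0.6, and in females 0.655% without those doublets, with nuclear shares of 0.763% and 0.836%. A limit of 5% mitochondrial UMIs, which removes the cells with the highest values, gave the Fa2h cluster an mt- share of 4.09% in males and 3.89% in females and a female nuclear share of 4.17%.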
